A study of Mus musculus with 6 samples.

Results

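The genes described here were 10 genes of the hypoxia-inducible factor (HIF) pathway, Hif1a, Egln1, Egln3, Bnip3, P4ha1, P4ha2, Vegfa, Adm, Ankrd37 and Ndrg1. They were chosen by symbol, as the rows of the deposited count table whose mouse gene identifier maps to these names, and make up 10 of its 52740 gene rows. A filter on low counts kept 9 of them among 15022 genes tested, and Adm did not pass it. The study measured RNA in C2C12 cells, an immortal line of mouse muscle precursor cells (myoblasts) that fuse into myotubes when serum is withdrawn. One group, siCTRL, received a random control siRNA, and the other, siCOX7A2L, an siRNA against Cox7a2l, which codes for a mitochondrial protein that links respiratory complexes into supercomplexes. Each group held 3 libraries, numbered 1 to 3, and both groups were kept in growth medium with 10% serum and in air with added carbon dioxide, so no group was exposed to low oxygen. The series' title concerns supercomplexes and myoblast differentiation. The labels number the replicates without saying whether they are separate cultures, so p-values measure the spread between these libraries, which may be technical.

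HIF is a pair of proteins, an oxygen-labile alpha subunit such as that coded by Hif1a and a stable partner coded by Arnt. When oxygen is present, prolyl hydroxylases (the Egln genes) mark the alpha subunit, the Vhl protein binds the mark, and the subunit is destroyed, so HIF activity is set largely at the protein and is not read from Hif1a RNA alone. When hydroxylation fails, the pair binds short DNA motifs near genes for glycolysis, mitophagy, collagen modification and blood vessel growth. Mitochondria are tied to this system because the respiratory chain consumes oxygen and the hydroxylases use a product of the citric acid cycle.

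The siRNA lowered its target. Cox7a2l (ENSMUSG00000024248.15) had normalised counts of 58.0, 59.5 and 58.9 CPM (counts scaled to library size with TMM factors) in siCTRL 1, 2 and 3, and 6.72, 5.90 and 3.59 in siCOX7A2L 1, 2 and 3. Its log2 fold change was -3.44 ± 0.19 (SE) with an adjusted p of 1.9e-05 in edgeR's quasi-likelihood test with the replicate number as a block, and 16.6% of the 31-base words of its transcripts also occur in other genes. Libraries held 9890218 to 17077826 estimated counts, with the smallest total in siCOX7A2L 3. Replicate 3 of both groups stood apart: 4447 of 15022 genes differed between replicate 3 and the mean of replicates 1 and 2. This contrast was set because earlier results of these same data had shown replicate 3 apart, so the count is a description and not an independent test. Summed levels of 5 myoblast markers (Myod1, Myf5, Des, Cdh15 and Ncam1) were 1326 to 1572 CPM in replicates 1 and 2 and 1938 and 2933 in replicate 3 of siCTRL and siCOX7A2L. Des made up most of this sum (728 to 1892 CPM). Myf5 went the other way in siCTRL, at 33.0 CPM in siCTRL 3 against 56.6 and 58.8, and Myod1 was nearly level there (134 against 130 and 127). Summed levels of 6 markers of differentiated muscle were 6.95 to 26.3 CPM in replicates 1 and 2, 141 in siCTRL 3 and 386 in siCOX7A2L 3. Of these 6, 5 were tested and 2 (Tnnt1 and Actc1) rose with the siRNA, beside 0.433% of all genes tested. Of 5 fibroblast markers 3 were tested and 1, Dcn, rose with the siRNA. The sum of the 5 ran from 224 to 839 CPM, with the highest values in replicate 3. Col1a1 made up most of this sum (199 to 783 CPM). Pdgfra was lower in replicate 3 of both groups (11.4 CPM in siCTRL 3 and 10.2 in siCOX7A2L 3). Thy1 was lower there too, but it was near 0 (at most 0.688 CPM) and was not tested. Adipocyte markers (at most 0.449 CPM in sum), endothelial (at most 0.898), blood cell (1.71 to 3.30) and epithelial markers (0.344 to 3.71) were near 0, with Cidec, Tie1, Adgre1 and Epcam at 0 in every library. The part of these marker differences in the values of the HIF genes was not tested.

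HIF is known to bind the letters ACGTG or GCGTG, so RefSeq promoters (build GRCm38.p6, 300 bases around the start of each gene, most of them before it) were searched for both motifs on both strands. Promoters were found for 9 of the 10 genes, 10 promoters in all because Vegfa has a pair. ACGTG was present in 80% of these 10 promoters and either motif in 90%, against 19.6% and 43.8% of all 32851 promoters. Other genes of the wider HIF pathway list described below lay between (78 promoters of 55 genes). Of these, 41% held ACGTG and 73.1% either motif, at a median of 64.5% G and C. The promoters of the 10 were also richer in G and C, with a median of 69.2% against 52.7% in all, and the part of base composition in the motif share was not tested. Shown are the gene with the smallest unadjusted p in the siRNA comparison (Bnip3), both genes whose groups did not overlap (Egln3 and P4ha2) and the 1 tested gene with a positive log2 fold change (Vegfa). Capitals mark ACGTG or GCGTG, or their reverse complements CACGT and CACGC, and CACGTG is ACGTG on both strands at once. The stretches, 5′ to 3′ on the gene's strand, are chr7:138909457-138909756 (minus strand) for Bnip3, chr12:54203825-54204124 (minus) for Egln3, chr11:54100674-54100973 (plus) for P4ha2 and chr17:46032328-46032627 (minus) for Vegfa.
Bnip3: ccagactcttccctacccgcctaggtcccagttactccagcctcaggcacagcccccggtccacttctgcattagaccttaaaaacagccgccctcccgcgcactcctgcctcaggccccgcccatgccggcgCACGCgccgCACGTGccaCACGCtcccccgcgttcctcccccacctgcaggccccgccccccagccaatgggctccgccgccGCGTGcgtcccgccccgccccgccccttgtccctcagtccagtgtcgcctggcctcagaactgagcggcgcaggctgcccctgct
Egln3: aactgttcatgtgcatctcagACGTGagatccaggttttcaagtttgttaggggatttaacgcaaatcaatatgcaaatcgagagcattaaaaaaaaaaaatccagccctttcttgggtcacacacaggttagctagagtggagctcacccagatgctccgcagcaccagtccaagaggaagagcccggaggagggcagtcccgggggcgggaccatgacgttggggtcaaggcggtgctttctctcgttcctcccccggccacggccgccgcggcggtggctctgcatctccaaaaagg
P4ha2: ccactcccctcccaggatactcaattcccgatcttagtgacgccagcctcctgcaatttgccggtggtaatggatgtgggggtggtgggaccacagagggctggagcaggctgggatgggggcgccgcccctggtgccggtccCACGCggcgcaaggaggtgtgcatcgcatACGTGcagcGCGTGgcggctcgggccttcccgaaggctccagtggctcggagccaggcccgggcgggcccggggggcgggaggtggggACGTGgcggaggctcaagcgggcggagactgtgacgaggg
Vegfa: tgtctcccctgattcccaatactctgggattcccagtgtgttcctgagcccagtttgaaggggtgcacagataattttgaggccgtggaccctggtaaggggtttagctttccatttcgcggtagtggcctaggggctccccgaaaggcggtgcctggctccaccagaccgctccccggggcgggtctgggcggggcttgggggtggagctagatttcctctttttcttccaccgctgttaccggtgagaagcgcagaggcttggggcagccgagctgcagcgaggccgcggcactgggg
Bnip3 held 2 matches of ACGTG and 3 of GCGTG in 4 runs of capitals, Egln3 1 match of ACGTG, and P4ha2 2 of each. The Vegfa promoter shown held neither, which says only that these letters are not in this window. The other Vegfa promoter (chr17:46025114-46025413, minus strand) held 1 of each. It lies downstream of the one shown on the gene's strand, and its matches count toward the 80% and 90% above. A match describes the sequence and was not measured as a binding site in these cells.

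Per transcript length, the order of the 10 genes was led by Vegfa, the secreted growth factor of blood vessels, at a median of 82.0 TPM (abundance scaled to transcript length and to the library's sum) over the 6 libraries. P4ha2 (median TPM 37.3), Hif1a (34.5) and P4ha1 (31.7) came next, then Ndrg1 (24.3) and Bnip3 (24.0), then Egln3 (13.6) and Egln1 (13.2). Ankrd37 was low at 2.45 TPM and Adm lowest at 0.312 TPM. Vegfa was above P4ha2, P4ha1 above Ndrg1, Bnip3 above Egln3, Egln1 above Ankrd37 and Ankrd37 above Adm in 6 of 6 libraries. The neighbours P4ha2 and Hif1a, Hif1a and P4ha1, Ndrg1 and Bnip3, and Egln3 and Egln1 changed places between libraries. One row without a symbol took 36.9% to 53.6% of TPM, so TPM values were used for this order within libraries and CPM for the comparison of groups.

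**Figure D1:**
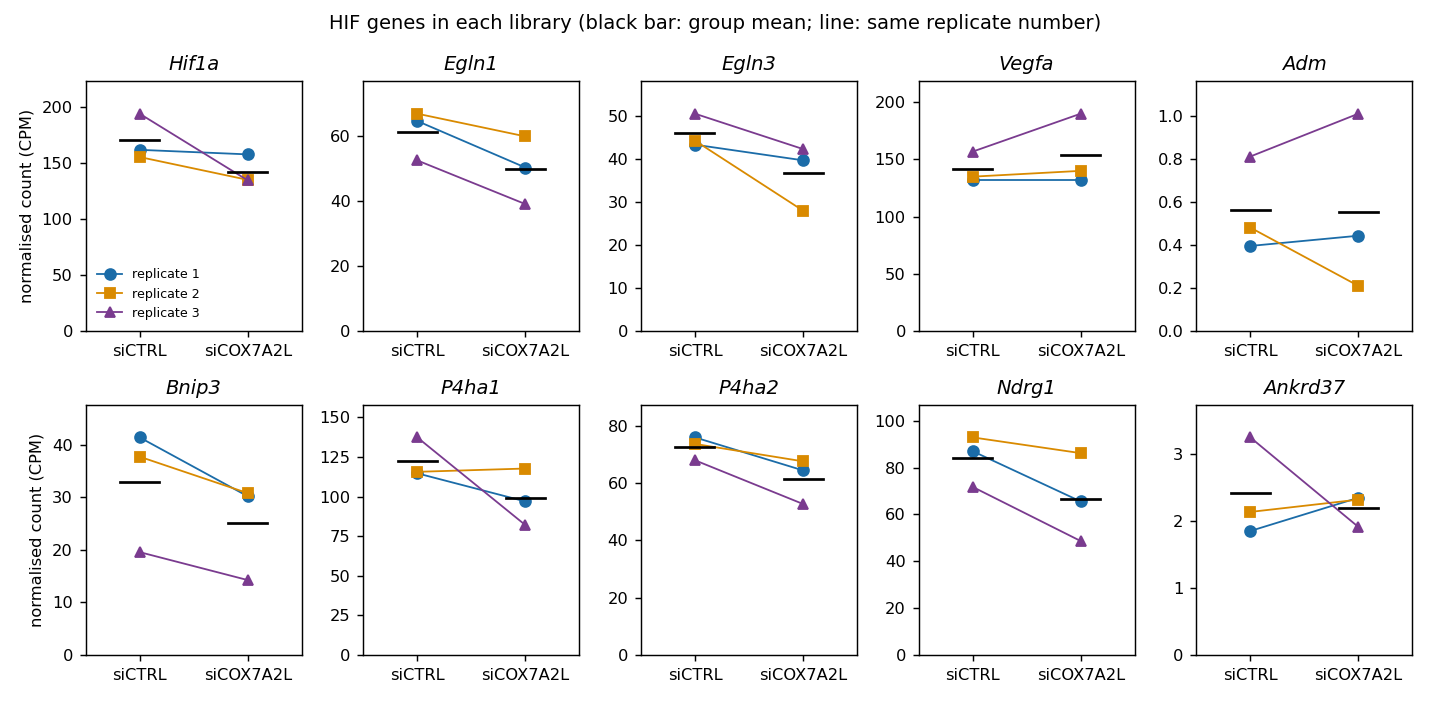
Normalised count (CPM, y axis from 0, a scale for each gene) of each HIF gene in the 3 siCTRL and 3 siCOX7A2L libraries; lines join libraries of the same replicate number and black bars are group means. The lines of Egln1, Egln3, Bnip3, P4ha2, Ndrg1 and Hif1a slope down in all 3 pairs, and the pairs of Vegfa, Adm, P4ha1 and Ankrd37 do not all do so.

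With the Cox7a2l siRNA, 8 of the 9 tested HIF genes had a log2 fold change below 0 and Vegfa alone one above 0, where 48.9% of all genes tested were below 0, and none of the 9 passed the test. Of the 9 genes, 0 had an adjusted p under 0.05, where 0.726% of all genes tested did (0.293% lower, 0.433% higher). DESeq2 with the same block and limma on log2 TPM also called 0 of them. At an unadjusted p under 0.05, 4 of the 9 were lower (Bnip3, Ndrg1, Egln1 and Egln3) and none higher, beside 8.97% and 8.74% of all genes (17.7% in either direction); DESeq2 had 2 such genes and limma 5. The median log2 fold change of the 9 was -0.31, against 0.0077 over all genes tested, and -0.24, -0.12 and -0.45 within pairs 1, 2 and 3. Without replicate 3 the median was -0.18, with 7 of 9 values below 0. In all 3 pairs 6 of the 9 were lower and 0 higher, while 20.8% of all genes were lower and 21.3% higher in all 3 pairs. Groups did not overlap for 2 of the 9, both lower, beside 7.62% of all genes that were lower in this way and 7.96% that were higher. In these bulk samples fewer cells of a type and less RNA per cell cannot be told apart.

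**Figure D2:**
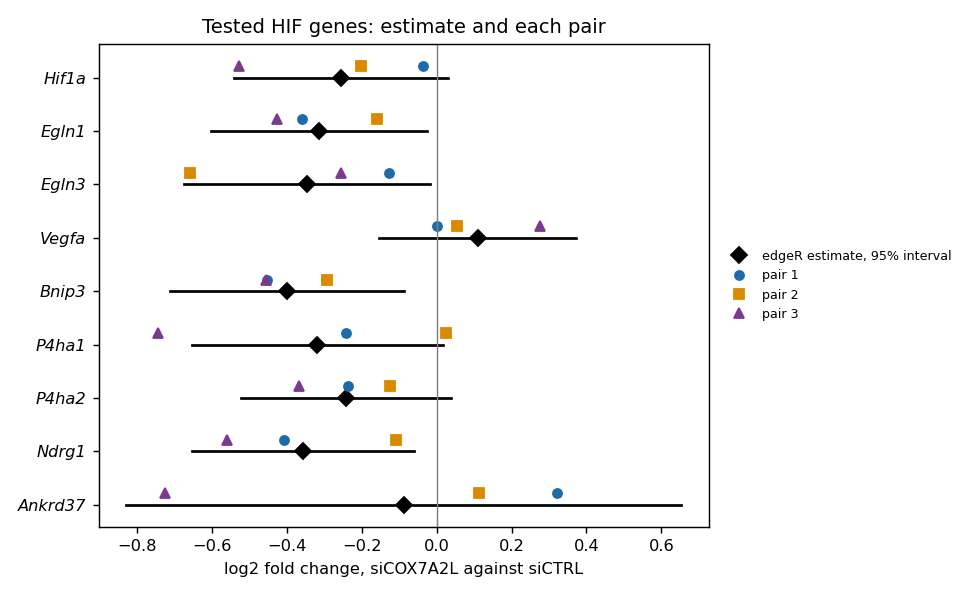
Log2 fold change of siCOX7A2L against siCTRL (x axis) for the 9 tested HIF genes; diamonds are edgeR estimates with unadjusted 95% intervals, and coloured points the 3 pairs. Estimates lie between -0.40 (Bnip3) and 0.11 (Vegfa), and the intervals of Bnip3, Ndrg1, Egln1 and Egln3 do not reach 0 before adjustment.

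Hif1a (ENSMUSG00000021109.14, on chromosome 12 in GENCODE M21) codes for the oxygen-labile subunit. Its normalised count was 162, 156 and 194 CPM in siCTRL 1, 2 and 3 and 158, 135 and 135 CPM in siCOX7A2L 1, 2 and 3. The highest value was siCTRL 3, and the groups overlapped because siCOX7A2L 1 lay above siCTRL 2. Means were 171 ± 20.7 and 143 ± 13.3 CPM (SD, n = 3 each). The log2 fold change was -0.25 ± 0.13 (SE), with a 95% interval from -0.54 to 0.03 and an adjusted p of 0.337 in edgeR. By pair it was -0.04, -0.20 and -0.53, so most of the estimate came from pair 3. Of the other HIF subunits, Arnt, the partner of every alpha subunit, had group means of 70.4 ± 12.1 and 70.6 ± 9.92 CPM and a log2 fold change of 0.008 ± 0.13, and Arnt2 had one of 0.03, with mixed pairs in both. Epas1 and Hif3a, the other alpha subunits, were too low to test, at 0.449 CPM or less in every library.

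Among the prolyl hydroxylases, Egln1 (ENSMUSG00000031987.7, chromosome 8), regarded as the main oxygen sensor, had 64.6, 66.9 and 52.5 CPM in siCTRL 1, 2 and 3 and 50.3, 59.9 and 39.1 CPM in siCOX7A2L 1, 2 and 3. Each siCOX7A2L library lay below its control of the same number, but the groups overlapped. The log2 fold change was -0.31 ± 0.13 (SE; 95% interval -0.60 to -0.02; unadjusted p 0.0361, adjusted p 0.246 in edgeR). Egln3 (ENSMUSG00000035105.6, chromosome 12), a hydroxylase that is itself a HIF target, had 43.2, 44.2 and 50.4 CPM in siCTRL 1, 2 and 3 and 39.6, 27.9 and 42.2 CPM in siCOX7A2L 1, 2 and 3. Every siCOX7A2L value lay below every siCTRL value, narrowly for siCOX7A2L 3. Its log2 fold change was -0.35 ± 0.15 (SE; 95% interval -0.67 to -0.02; adjusted p 0.258 in edgeR), and -0.13, -0.66 and -0.26 by pair, largest in pair 2. Egln2, the hydroxylase not chosen here, had a log2 fold change of 0.08 (0.55 in pair 3), and Vhl one of -0.07 with mixed pairs. Hif1an, which hydroxylates an asparagine of the alpha subunit and so blocks its coactivators, had 78.8, 72.3 and 55.5 CPM in siCTRL 1, 2 and 3 and 60.3, 63.9 and 44.5 CPM in siCOX7A2L 1, 2 and 3, and a log2 fold change of -0.29 (adjusted p 0.258).

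Bnip3 (ENSMUSG00000078566.9, chromosome 7), a protein of the outer mitochondrial membrane that marks mitochondria for mitophagy, had the smallest unadjusted p of the 10. Its values were 41.5, 37.8 and 19.6 CPM in siCTRL 1, 2 and 3 and 30.2, 30.8 and 14.3 CPM in siCOX7A2L 1, 2 and 3. Replicate 3 was low in both groups, so the groups overlapped although each pair differed by a similar amount, -0.45, -0.29 and -0.45 on the log2 scale. The log2 fold change was -0.40 ± 0.14 (SE), a fold of 0.758, with a 95% interval from -0.71 to -0.09, an unadjusted p of 0.0169 and an adjusted p of 0.178 in edgeR. Of the 31-base words in its annotated transcripts 20.3% also occur in other genes, chiefly Gm16439, which was listed at 0 counts in every library, so its counts depend on how shared reads were assigned. Bnip3l, the related mitophagy receptor, had a log2 fold change of -0.39 and -0.60, -0.03 and -0.54 by pair (adjusted p 0.199).

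Both prolyl 4-hydroxylase subunits, which modify collagen in the endoplasmic reticulum, had estimates below 0. P4ha1 (ENSMUSG00000019916.15, chromosome 10) had 115, 116 and 137 CPM in siCTRL 1, 2 and 3 and 96.9, 118 and 82.0 CPM in siCOX7A2L 1, 2 and 3. Its pairs were -0.24, 0.03 and -0.74, so pair 2 showed no decrease, and the log2 fold change was -0.32 ± 0.15 (SE; 95% interval -0.65 to 0.02; adjusted p 0.306). P4ha2 (ENSMUSG00000018906.15, chromosome 11) had 75.9, 73.6 and 67.9 CPM in siCTRL 1, 2 and 3 and 64.4, 67.6 and 52.7 CPM in siCOX7A2L 1, 2 and 3. Its groups did not overlap, by a margin under 1 CPM between siCTRL 3 and siCOX7A2L 2. The log2 fold change was -0.24 ± 0.13 (SE; 95% interval -0.52 to 0.04; adjusted p 0.349 in edgeR).

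The secreted factors had estimates near 0 or too few counts to test. Vegfa (ENSMUSG00000023951.19, chromosome 17) had 132, 135 and 157 CPM in siCTRL 1, 2 and 3 and 132, 139.8 and 189.7 CPM in siCOX7A2L 1, 2 and 3. Replicate 3 was the highest library of each group, and pair 1 was level. The log2 fold change was 0.11 ± 0.12 (SE; 95% interval -0.15 to 0.37; adjusted p 0.68 in edgeR). Its sign was not stable: it was -0.35 on log2 TPM, where the median of all genes was -0.18, and -0.06 without siCOX7A2L 3 and without the block. Adm, which codes for the vasodilator peptide adrenomedullin (ENSMUSG00000030790.16, chromosome 7), had 6, 7 and 14 estimated counts in siCTRL 1, 2 and 3 and 7, 3 and 9 in siCOX7A2L 1, 2 and 3. No difference in Adm was detectable at this depth: fitted without the filter, its log2 fold change was -0.14 ± 0.69 (SE; adjusted p 0.964).

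The remaining pair of targets differed in how well they were measured. Ndrg1 (ENSMUSG00000005125.14, chromosome 15), a stress-response gene linked to differentiation, had 87.0, 92.9 and 71.8 CPM in siCTRL 1, 2 and 3 and 65.5, 86.2 and 48.6 CPM in siCOX7A2L 1, 2 and 3. Each pair was lower with the siRNA, by -0.41, -0.11 and -0.56, and the groups overlapped. The log2 fold change was -0.36 ± 0.13 (SE; 95% interval -0.65 to -0.06; unadjusted p 0.0224, adjusted p 0.2 in edgeR). Ankrd37 (ENSMUSG00000050914.17, chromosome 8), an ankyrin repeat gene known mainly as a HIF target, had 1.85, 2.13 and 3.25 CPM in siCTRL 1, 2 and 3 and 2.34, 2.32 and 1.91 CPM in siCOX7A2L 1, 2 and 3. These rest on 17 to 56 estimated counts a library. Pairs 1 and 2 were above 0 and pair 3 was -0.72, and the log2 fold change was -0.09 ± 0.34 (SE; 95% interval -0.83 to 0.65; adjusted p 0.923); without replicate 3 it was 0.23. Ankrd37, Ndrg1, Bnip3, Adm and Hif1a overlap other annotated genes on the opposite strand. Hif1a also overlaps Gm49321 on its own strand, which strand cannot separate, and 2.04% of its 31-base words occur in other genes, the most in Gm49321. The libraries were strand-marked per the labels, but no source used here says whether the counting used strand.

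The wider HIF pathway was read from a list of 83 genes that includes the 10, of which 77 were tested. Of the 77, 1 fell with the siRNA, Stc2, and 0 rose, beside 0.293% lower and 0.433% higher of all genes tested. The median log2 fold change was -0.07, with 46 values below 0 and 31 above, where 48.9% of all genes tested were below 0. These counts include the tested HIF genes described above. Without the 10, the median over 68 tested genes was -0.047, with 38 below 0 and 30 above. In all 3 pairs 27 genes of the list were lower and 10 higher (21 and 10 of the 68 without the 10), beside 20.8% and 21.3% of all genes. Stc2, a secreted glycoprotein, had 13.7, 14.6 and 18.7 CPM in siCTRL 1, 2 and 3 and 6.91, 8.92 and 8.87 CPM in siCOX7A2L 1, 2 and 3. Every siCOX7A2L value lay below every siCTRL value. Its log2 fold change was -0.92 ± 0.18 (SE; adjusted p 0.0478 in edgeR). The call rests on the replicate block, with an adjusted p of 0.735 in edgeR without it. With the block kept, it was also lost in edgeR with library size alone (adjusted p 0.0636) and in limma on log2 TPM (0.164). In all, 12 of 18 alternatives lost it. DESeq2 with the block called 4 genes of the list, Stc2, Ak4 and Pgk1 lower and Stc1 higher. It called 495 of 11187 genes with an adjusted p. The call of Stc2 was also lost without replicate 1 (adjusted p 0.0722) and without replicate 3 (adjusted p 0.0835), in edgeR fits of 2 pairs each.

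**Figure D3:**
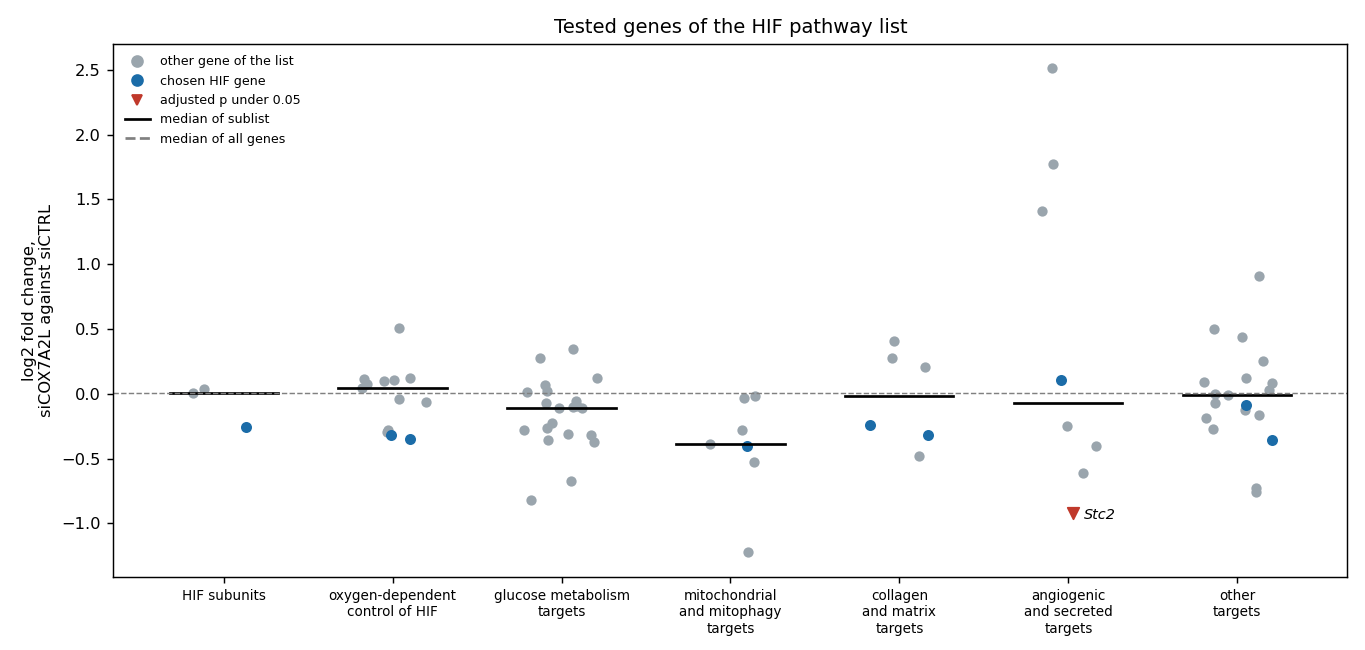
Log2 fold change of siCOX7A2L against siCTRL (y axis) for the 77 tested genes of the HIF pathway list, by sublist; blue points are the chosen HIF genes, the triangle the gene with an adjusted p under 0.05, black bars sublist medians and the dashed line the median of all genes tested (0.0077). The triangle is Stc2, and all 7 genes of the sublist named mitochondrial and mitophagy targets lie below 0.

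By role, the 13 genes of oxygen-dependent control had a median log2 fold change of 0.05, with 6 below 0 and 7 above. The 21 glucose metabolism targets had a median of -0.11, with 15 below 0; Pkm, the most abundant, was at 3573 ± 524 and 3327 ± 466 CPM (log2 fold change -0.10), and Aldoa at 1073 ± 175 and 1115 ± 86.5 CPM (0.07). Pgk1, which makes ATP in glycolysis, was named after its values were seen. It had 736, 693 and 477 CPM in siCTRL 1, 2 and 3 and 412, 565 and 188 CPM in siCOX7A2L 1, 2 and 3, with a log2 fold change of -0.82 and an adjusted p of 0.0675 in edgeR. It passed in DESeq2 with the same block (adjusted p 5.45e-04), with no filter, and without replicate 1 or without replicate 2. All 7 tested genes of the sublist named mitochondrial and mitophagy targets, Mxi1 (-0.53) among them, had values below 0, with a median of -0.39. None of the 7 passed edgeR's test with all 3 pairs and the filter on low counts. They ran from -0.02 to -1.22 in Ak4, a mitochondrial adenylate kinase (adjusted p 0.0611), which was also named after its values were seen. Ak4 passed in DESeq2 with the same block (adjusted p 0.00171), with no filter, and without replicate 1 or without replicate 2, and its log2 fold change ran from -1.59 to -0.60 with libraries left out. Mxi1 passed with no filter, and Bnip3l without replicate 2. Lonp1, a mitochondrial protease, was at -0.03. Of the 6 collagen and matrix targets, 3 were below 0 and 3 above. Lox, which crosslinks collagen, had a log2 fold change of 0.40 (adjusted p 0.158) and Plod1 one of 0.21, against the negative values of P4ha1 and P4ha2. The 8 tested angiogenic and secreted targets were divided, 4 below 0 and 4 above. Igfbp3, which binds insulin-like growth factors, had 23.9, 22.8 and 3.94 CPM in siCTRL 1, 2 and 3 and 55.9, 48.6 and 40.3 CPM in siCOX7A2L 1, 2 and 3. Its groups did not overlap, and its pairs were 1.22, 1.09 and 3.31. Its adjusted p in edgeR was 0.253 with all 3 pairs, 7.34e-06 without replicate 1, 6.97e-19 without replicate 2 and 0.0105 without replicate 3. Fits without a replicate number, here and for Pgk1, Ak4 and Bnip3l above, held only 2 pairs and left little spread to measure in each gene. Their p-values are therefore not like measures to those of the full fit. Edn1 (1.41, adjusted p 0.0576) and Stc1 (2.51, adjusted p 0.0736), both named after their values were seen, had their highest levels in replicate 3. Stc1 was at 2.71, -0.27 and 3.06 by pair, and with libraries left out its log2 fold change ran from 0.51 (without siCOX7A2L 3) to 4.32 (without siCTRL 3). Edn1 was at 1.59, 1.41 and 1.10 by pair, and ran from -0.15 to 3.05 without the same libraries. Angptl4 was at -0.25. The 19 other tested targets had a median of -0.01, with Hmox1 at 0.26 and Ddit4 at 0.44 (adjusted p 0.229). Among regulators, Cited2, which competes with the HIF alpha subunit for its coactivator, was at 0.51, with -0.06 in pair 2 and 1.21 in pair 3, and the coactivator Ep300 at 0.10. Calls of the list in other edgeR settings went in both directions. With no filter, 6 genes passed higher (Bhlhe41, Cited2, Ddit4, Edn1, Lox and Stc1) and 5 lower. Without replicate 2, a fit of 2 pairs, 5 passed higher (Cited2, Edn1, Igfbp3, Slc2a1 and Stc1) and 6 lower. Without replicate 1, also 2 pairs, 3 passed higher (Bhlhe41, Igfbp3 and Stc1) and 2 lower.

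In replicate 3 of both groups Bnip3 and Ndrg1 fell below their levels in replicates 1 and 2. In the same edgeR fit, 2 of the 9 tested HIF genes were lower in replicate 3 and 0 were higher; 29.6% of all genes tested passed that test (13.3% lower, 16.3% higher), so the count of the 9 was near the background. Bnip3 was at 0.482 of its level in replicates 1 and 2 (log2 difference -1.05 ± 0.16 SE, adjusted p 8.9e-04), with -1.01 in siCTRL and -1.09 in siCOX7A2L. Ndrg1 was at 0.721 (log2 difference -0.47 ± 0.15 SE, adjusted p 0.0324), with -0.32 in siCTRL and -0.63 in siCOX7A2L; without siCTRL 2 or without siCOX7A2L 3 only Bnip3 passed. Egln1 (-0.40, adjusted p 0.0526) and Vegfa (0.36, adjusted p 0.0514) came close to the threshold on opposite sides of 0. Hif1a was at 0.29 within siCTRL and -0.12 within siCOX7A2L, with a joint value of 0.09 (adjusted p 0.642). Of the 77 tested pathway genes, 23 were lower and 10 higher in replicate 3. The glucose metabolism targets gave 7 of the 23, with 0 higher, among them Ldha (log2 difference -1.13, adjusted p 1.9e-04) and Pdk1 (-1.29, adjusted p 1.5e-04). Ldha makes lactate from pyruvate and Pdk1 limits the entry of pyruvate into the citric acid cycle. Cited2 (1.56), Edn1 (2.86) and Stc1 (3.62) were higher. What the libraries of replicate 3 share is not given in the labels, and the differentiated muscle markers were highest in them. Replicate 3 had been picked out in earlier results of these same data, so the adjusted p-values of this contrast only describe it.

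**Figure D4:**
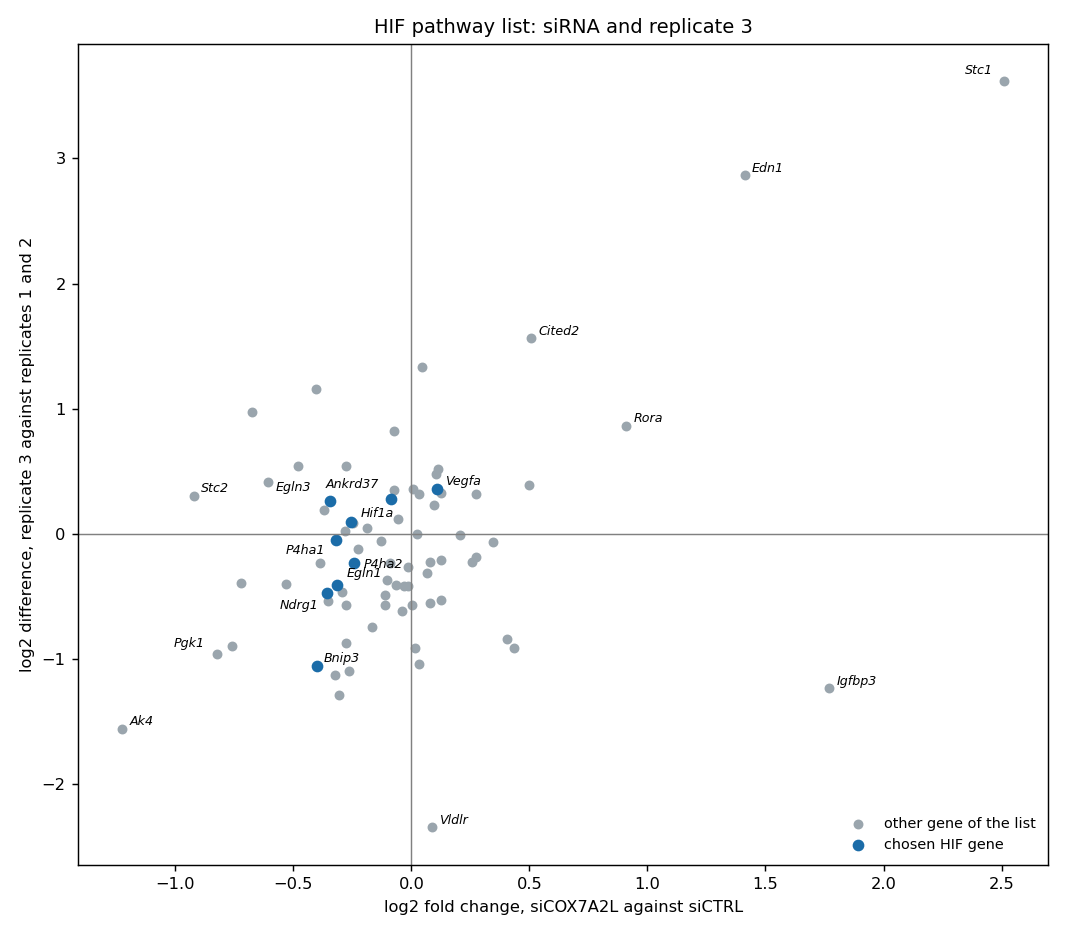
For the 77 tested genes of the HIF pathway list, the log2 fold change of siCOX7A2L against siCTRL (x axis) and the log2 difference of replicate 3 from replicates 1 and 2 (y axis); blue points are the chosen HIF genes. Bnip3 lies lowest of the blue points at -1.05, and Stc1 and Edn1 lie far from the other points at the top right.

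Over the 6 libraries, the genes most like Hif1a by the root mean square difference of centred log2 CPM were Dhx15 (0.026), Senp1, Mtmr2, Prkci and Rbbp5 (0.045), among 9646 genes with a mean of at least 10 CPM. For Bnip3 they were Nsl1 (0.022), Tarbp1, Hist1h2bp, Abcb10 and Gm20236 (0.071). The 10 HIF genes were left out of the search. With 6 libraries and so many candidates the ranking is a description.

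In the authors' deposited table, 808 of 12742 genes with an adjusted p passed 0.05 (6.34%, of which 2.89% higher and 3.45% lower), and 0 of the 10 HIF genes did. The smallest adjusted p of the 10 in the authors' deposited table was 0.0881, for Bnip3 at a log2 fold change of -0.41, and Hif1a had -0.26 with 0.285. Of the pathway list, the authors' deposited table called Stc2, Pgk1, Ak4, Mxi1 and Ldha lower and Edn1 and Igfbp3 higher.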

How the data were processed

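RNA of 6 C2C12 libraries was measured by RNA-seq of ribosomal RNA-depleted, strand-marked libraries, per the labels' protocols. Tools listed in the submitters' processing notes are Salmon 0.13.1, Trim Galore 0.6.4 and DESeq2 1.30.1, with the build mm39. Which annotation was used, and how transcripts were summed to genes, is not given in the sources used here. Deposited files hold the authors' estimated counts per gene (not whole in 12.5% to 14.3% of values), TPM values, and a table of log2 fold changes with standard errors and adjusted p-values. The deposited standard errors, on the log2 scale, were treated as a score and not analysed further.

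Counts were rounded and fitted in edgeR 4.0.16 (R 4.3.3) over all genes after edgeR's default filter on low counts by group, with TMM scaling and robust quasi-likelihood fits. Terms were replicate number and siRNA, tests were two-sided, and p-values were adjusted by Benjamini-Hochberg at 0.05. Symbols came from GENCODE M21 on GRCm38, joined by identifier without version (97.6% of rows matched), so no coordinates are given for the deposited build. Pair values are log2 CPM with a prior count of 2. The script was checked on simulated data. No label says what a replicate number shares. Same-numbered libraries correlated at 0.532, 0.452 and 0.669 in their deviations from group means, each over 0.1 and above every other combination (at most 0.435), and were taken as pairs. For numbers 1 and 2 the margin was small: siCTRL 1 with siCOX7A2L 2 gave 0.435 and siCTRL 2 with siCOX7A2L 1 gave 0.429. With replicate 3 far apart, libraries 1 and 2 correlate across groups under either numbering, so this check says little about pairs 1 and 2. The design foresaw counts, and the files held estimated counts, hence the rounding. Alternatives were no block, other scalings, filters and tools (DESeq2 1.42.0, limma 3.58.1 on log2 TPM with a pseudocount of 1), and leaving out replicates. Totals of 9890218 to 17077826 limit the precision of low genes such as Adm and Ankrd37.

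The 10 genes, the pathway list, the marker lists and the contrast of replicate 3 were chosen with earlier results of these data known. Genes named were the 10, pathway genes past 0.05, the 2 tested genes of highest CPM in each of 7 sublists, the HIF subunits, Egln2, Hif1an, Vhl and Cox7a2l, and the 5 genes most like Hif1a and Bnip3. Others named from the list were chosen after their values were seen. One gene was left out of the pathway list and is not reported here.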

Additional observations from a re-analysis of the deposited data

How the results depend on the processing

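No HIF gene passed the test in any of 18 alternatives, and the estimates of Hif1a, Egln1, Egln3, Bnip3, P4ha1, P4ha2 and Ndrg1 stayed below 0 in all 18. What limits these results is the number of pairs, replicate 3, and few counts for Adm and Ankrd37. The lowest adjusted p of any of the 9 was 0.0696, for P4ha1 in edgeR without replicate 2, a fit of 2 pairs. The causes of the changes below were not tested.

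Genes called, against 109 here, and HIF pathway genes called, against 1, numbered 2 and 0 with no replicate block, 58 and 0 with library size alone, 1257 and 11 with no filter, 495 and 4 in DESeq2 with the block, 27 and 0 in DESeq2 without it, and 11 and 0 in limma on log2 TPM. A term for replicate 3 in place of the replicate number gave 197 genes. Fits without a whole replicate number, given below, held 2 pairs each, so their counts are not like measures to the count of the full fit. The share of called genes that were higher was 59.6% here, 70.7% with library size alone, 45.2% with no filter, 42.8% in DESeq2 with the block and 36.4% in limma. Leaving out libraries gave 0 to 1210 genes and 0 to 11 pathway genes: 373 and 5 without replicate 1, 1210 and 11 without replicate 2, 51 and 1 (Igfbp3) without replicate 3, and at most 2 genes without a single library and without the block. In those single-library fits Cox7a2l lost its call without siCTRL 1 (-3.44), siCTRL 2 (-3.42), siCTRL 3 (-3.42), siCOX7A2L 1 (-3.61) or siCOX7A2L 2 (-3.49), with adjusted p of 0.0816 to 0.286. The median of the 9 HIF genes was -0.54 on log2 TPM, where that of all genes was -0.18, and -0.33 to -0.15 with libraries left out.

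Signs turned on log2 TPM for Vegfa (-0.35), Arnt (-0.34), Arnt2 (-0.025), Egln2 (-0.13), Ep300 (-0.33), Aldoa (-0.20), Plod1 (-0.15) and Hmox1 (-0.0078). With library size alone Arnt was -0.037 and Arnt2 -0.011, with no filter Arnt was -0.0015, and in DESeq2 without the block -0.0047. With a whole replicate number left out, values spanned 0 for Ankrd37 (-0.31 to 0.23), Arnt (-0.088 to 0.057), Arnt2 (-0.12 to 0.12), Egln2 (-0.15 to 0.25), Vhl (-0.23 to 0.12), Lonp1 (-0.11 to 0.067) and Aldoa (-0.013 to 0.11). With single libraries left out and no block, values of opposite sign were found without siCTRL 1 for Arnt (-0.051), Arnt2 (-0.040) and Vhl (0.11), without siCTRL 2 for Arnt (-0.081), Arnt2 (-0.061) and Lonp1 (0.092), without siCTRL 3 for Ankrd37 (0.14), Egln2 (-0.10) and Aldoa (-0.074), without siCOX7A2L 2 for Arnt (-0.0041), Arnt2 (-0.040), Egln2 (-0.028) and Vhl (0.059), and without siCOX7A2L 3 for Vegfa (-0.061), Arnt (-0.11), Arnt2 (-0.042), Cited2 (-0.26), Ep300 (-0.076), Lonp1 (0.041) and Edn1 (-0.15).

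For replicate 3 against the others, 4447 genes were called here, 2446 in limma on log2 TPM and 3488 to 5281 with a library left out. Of the HIF genes 1 was called in limma and 1 to 4 with a library left out, and Bnip3 was called each time. The difference turned to -0.081 for Hif1a and -0.53 for Vegfa on log2 TPM, and with libraries left out it ran from -0.12 to 0.31 for Hif1a, -0.29 to 0.72 for Ankrd37 and -0.39 to 0.27 for P4ha1.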

Other observations

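Vegfa was the HIF gene whose transcript length, as implied by the ratio of its deposited count to its deposited TPM, moved most between libraries. Relative to siCTRL 1, its log2 implied length was -0.18 in siCTRL 2 and 0.44 in siCTRL 3, and 0.016, 0.019 and 0.81 in siCOX7A2L 1, 2 and 3. This range of 0.988 stood at percentile 95.8 of 8956 genes. Replicate 3 thus had the longest implied Vegfa transcripts in both groups, which is where the CPM and TPM values of Vegfa part. Bnip3 had the next widest range of the 8 genes measured, 0.66 at percentile 86.1, with -0.60 in siCOX7A2L 3, while Egln1 and Egln3 stayed within 0.0075 and 0.005.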
